A study of Mus musculus with 2 samples.

Results

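The regions described here are 10 kb windows of the mouse genome in which the KDM2A ChIP library held far fewer tags than the input library. They were chosen by the tag counts themselves. Each position and strand was counted once, chromosomes 1 to 19 were cut into windows from position 1, and a window was kept if it held at least 20 input tags and its KDM2A tags were at most 0.5 of its input tags after scaling by library totals. Of 247241 windows, 184973 held at least 20 input tags and could be tested, and 31157 of these met the limit. This is 16.8% of the windows tested, and they are called depleted windows below. The number rests on the scaling: with input scaled by the median ratio of the windows tested, a setting added with the data in view, 10811 windows (5.84%) met the limit. The 62268 windows with fewer input tags, 9570 of them without any tag, were not tested.

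The data are 1 library of chromatin immunoprecipitated with an antibody against KDM2A and 1 library of input DNA, both from V6.5 embryonic stem cells, a mouse line from a cross of C57BL/6 and 129/sv that was grown on feeder cells and then passaged without them before ChIP. The strain is entered as C57BL/6 for both samples. Neither library carries a further treatment, and both went through 18 cycles of PCR. With 1 library each there are no replicates, so every value below compares these 2 libraries, and the intervals cover counting error only. Counted once per position and strand, the KDM2A library held 9564671 tags and the input library 7764852, so that input was multiplied by 1.23. Copies of a position beyond the first made up 4.75% of the KDM2A tags and 20.4% of the input tags and were left out.

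KDM2A is a histone demethylase that removes methyl groups from lysine 36 of histone H3. It carries a zinc finger CxxC domain that binds CpG dinucleotides without DNA methylation, and such DNA lies mainly in CpG islands, short CpG-rich stretches at many promoters. In most of the mammalian genome CpG dinucleotides are few and methylated, and long stretches between genes hold no island. Input DNA is chromatin taken before the precipitation, and its tag density follows the copy number of a region, how readily its DNA is sheared, amplified and sequenced, and the share of it on which reads can be placed.

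In a window with 20 input tags, library totals gave 24.6 KDM2A tags, and the limit allowed at most 12. The depleted windows held a median of 14 KDM2A tags (quartiles 11 and 18) and a median of 29 input tags (quartiles 24 and 35). Their median ratio of KDM2A to scaled input was 0.42, with quartiles of 0.36 and 0.46. Most of them therefore lay not far below the limit. A ratio of at most 0.4 was found in 12935 of them (41.5%), of at most 0.25 in 1589 (5.10%) and of at most 0.1 in 27. Together they covered 312 Mb and held 12.4% of the input library but 4.99% of the KDM2A library, a pooled ratio of 0.404. These values describe the choice of windows and were not tested.

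The limit cut through the slope of a single broad distribution. The median ratio over all windows tested was 0.764, and 130125 of them (70.3%) lay under 1. The lowest ratios belonged to a window on chromosome 3, from 115130001 to 115140000 in mm9 coordinates, with 1 KDM2A tag and 21 input tags, and to windows on chromosome 5 (55640001 to 55650000) and chromosome 6 (27390001 to 27400000), each with 1 KDM2A tag and 20 input tags. In these 3 windows the input tags were spread over both strands, with 12 and 9, 12 and 8, and 11 and 9 tags on the plus and minus strands. The next were on chromosome 15 (69620001 to 69630000), with 2 KDM2A and 29 input tags, and on chromosome 16 (41600001 to 41610000), with 2 KDM2A and 28 input tags. Just inside the limit, 427 windows shared a ratio of 0.4996, with 16 to 48 KDM2A and 26 to 78 input tags, and the 5 of them with the most input held from 32 KDM2A and 52 input tags to 48 and 78. The 5 windows just outside, at 0.5006, each held 37 KDM2A and 60 input tags.

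**Figure D1:**
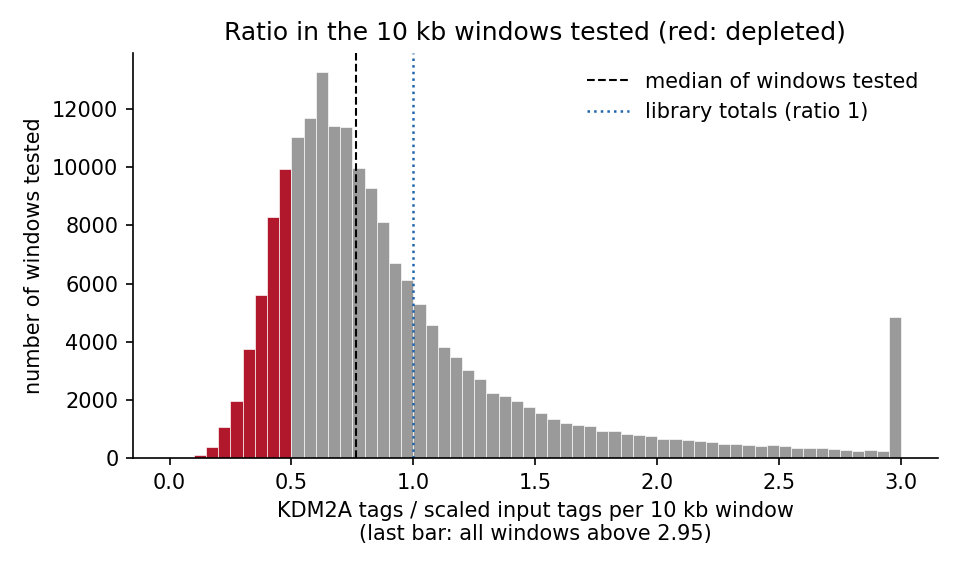
Number of 10 kb windows tested (y axis) by the ratio of KDM2A to scaled input tags (x axis). The 31157 depleted windows, in red, form the left flank of 1 peak, the dashed line marks the median of 0.764 over all windows tested, and the last bar collects all higher ratios.

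The number of depleted windows was set beside the number that counting error alone would give. For each window, the sum of its KDM2A and input tags was taken as fixed, and the probability of meeting the rule was computed exactly from the binomial distribution, without random draws. With the KDM2A share of tags set by library totals, at 55.2%, counting error gave 1325 depleted windows, and 23.5 times as many were found. Library totals include the tags of bound regions, however. With the share taken outside 250 bp bins of 15 or more KDM2A tags, counting error gave 2258 windows, and with the share at the median ratio of the windows tested it gave 10510.5. With the share taken for each window from the 10 windows on either side of it, 21298 windows were given by counting error, which is 68.4% of the number found. These last 3 settings were added with the data in view. The number found was thus 1.46 times what counting error gave around the local level. Among windows of at least 40 input tags, where 4914 (6.88%) were depleted, it was 2.17 times that number.

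With the libraries exchanged, 14112 windows had at least 20 KDM2A tags and an amount of scaled input at most 0.5 of them, which is 9.32% of the 151464 windows that could be tested that way. Counting error gave 2218 of these around library totals, 1356 with the share taken outside KDM2A bins, 253 with the share at the median ratio and 7846 with the share of the 10 windows on either side. Of the exchanged windows, 69.1% held a 250 bp bin with 15 or more KDM2A tags. Of all windows with at least 20 input tags, 6.89% held one. That set was picked by input tags and not by KDM2A tags, so the 2 shares do not rest on the same windows. The highest 250 bp bin was also taken for each library separately. In the depleted windows it held a median of 2 KDM2A tags and 3 input tags, against 4 and 4 in the other windows tested. The choice of windows and the bins use the same KDM2A tags, so these shares are a description.

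Tags on the other strand gave a measure that the choice had not used. These are separate reads, although both ends of 1 amplified fragment can be read, and they share the DNA of the window. Windows were chosen on plus-strand tags alone, with at least 10 input tags and the same limit, and their minus-strand tags were then counted. On the plus strand 40169 of 183796 windows (21.9%) met the limit. Their pooled ratio was 0.374 on the plus strand and 0.596 on the minus strand (95% Wilson interval 0.593 to 0.598). In the windows that were tested and not chosen, the pooled minus-strand ratio was 1.14 (1.136 to 1.139). A pooled ratio gives more weight to windows rich in KDM2A tags, so 1.14 is not the level of a typical window. With both strands counted, the median ratio of the windows with at least 20 input tags was 0.764. The lower KDM2A density was therefore also seen in tags that had no part in the choice, at a smaller size. Of the chosen windows with at least 10 input tags on the minus strand, 42.7% met the limit there as well (42.1% to 43.2%), against 13.2% (13.0% to 13.4%) of those not chosen.

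The minus-strand ratio rose with the plus-strand ratio over its whole range. It was 0.522 (0.512 to 0.531) in the 2590 windows with a plus-strand ratio of at most 0.2, 0.556 (0.5496 to 0.562) in those from 0.2 to 0.3, 0.583 (0.579 to 0.588) from 0.3 to 0.4 and 0.622 (0.618 to 0.625) from 0.4 to 0.5. Above the limit it was 0.705 (0.703 to 0.707) from 0.5 to 0.75 and 0.834 (0.831 to 0.837) from 0.75 to 1. No step was seen at the limit. Even the windows lowest on the plus strand did not fall below 0.5 on the minus strand when pooled.

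The same count was made in windows at set distances from those chosen on the plus strand. At 10 kb the minus-strand ratio was 0.713 (0.711 to 0.715), at 100 kb 0.769 (0.767 to 0.771), at 500 kb 0.834 (0.831 to 0.836) and at 1 Mb 0.872 (0.8698 to 0.874). Around all windows tested, the corresponding values lay between 1.04 and 1.06. At 5 Mb the values were 0.947 (0.944 to 0.949) and 1.02 (1.01 to 1.02). Around windows chosen on the plus strand, the pooled ratio thus stayed below that around all windows tested over megabases. It dropped further within the window itself. Pooled values give more weight to windows rich in KDM2A tags, and those holding a KDM2A bin had a pooled ratio of 2.69 with both strands counted. The values at 100 kb and beyond lay above 0.764, the median ratio of the windows tested with both strands counted. Whether fewer KDM2A bins nearby account for the lower pooled values was not tested.

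**Figure D2:**
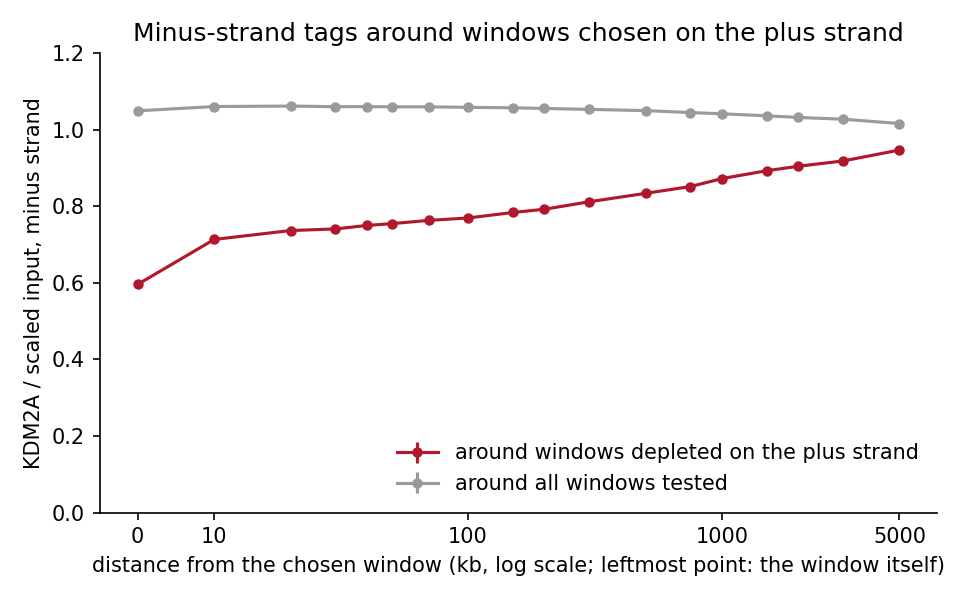
Ratio of KDM2A to scaled input tags on the minus strand (y axis) by distance from windows chosen on plus-strand tags (x axis, kb, log scale; the leftmost point is the window itself). Around the windows chosen on the plus strand, in red, it rose from 0.596 to 0.947 over 5 Mb, and around all windows tested, in grey, it stayed between 1.02 and 1.06. The 95% Wilson intervals are smaller than most points.

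Depleted windows lay far from KDM2A peaks. A peak was taken as a 250 bp bin with 15 or more KDM2A tags, of which there were 32346, in 12971 windows. The median distance to the nearest such bin was 308 kb for depleted windows (quartiles 106 and 680 kb) and 64 kb for the other windows tested (quartiles 15.8 and 208.5 kb). Over 500 kb away were 34.8% of the depleted windows and 9.42% of the others, and over 1 Mb away 14.6% and 2.94%. The farthest depleted window was 5734 kb from a bin. On each of the 19 chromosomes the median distance was longer for depleted windows, at 221.5 to 456.5 kb, than for the others, at 33.8 to 94.5 kb. KDM2A tags enter both the rule and the bins, so these distances are a description.

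The share of windows that were depleted rose in every band of distance. It was 4.82% (95% Wilson interval 4.52% to 5.13%) of the windows without a bin inside but within 10 kb of one, 9.05% (8.68% to 9.44%) at 25 to 50 kb, 17.5% (17.1% to 17.9%) at 100 to 250 kb and 38.7% (38.0% to 39.5%) at 500 kb to 1 Mb. Beyond 2 Mb it was 53.1% (50.8% to 55.3%), so that more of the windows tested there met the limit than did not. Far from bins few windows could be tested, 1939 of 9064 beyond 2 Mb against 18805 of 19531 within 10 kb. The mean input of all windows beyond 2 Mb was 10.6 tags, so those tested were the ones richer in input. The shares of near and far bands therefore rest on windows selected unlike each other. On every chromosome the share was higher beyond 500 kb, at 34.2% to 48.6%, than within 100 kb, at 4.27% to 11.5%.

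**Figure D3:**
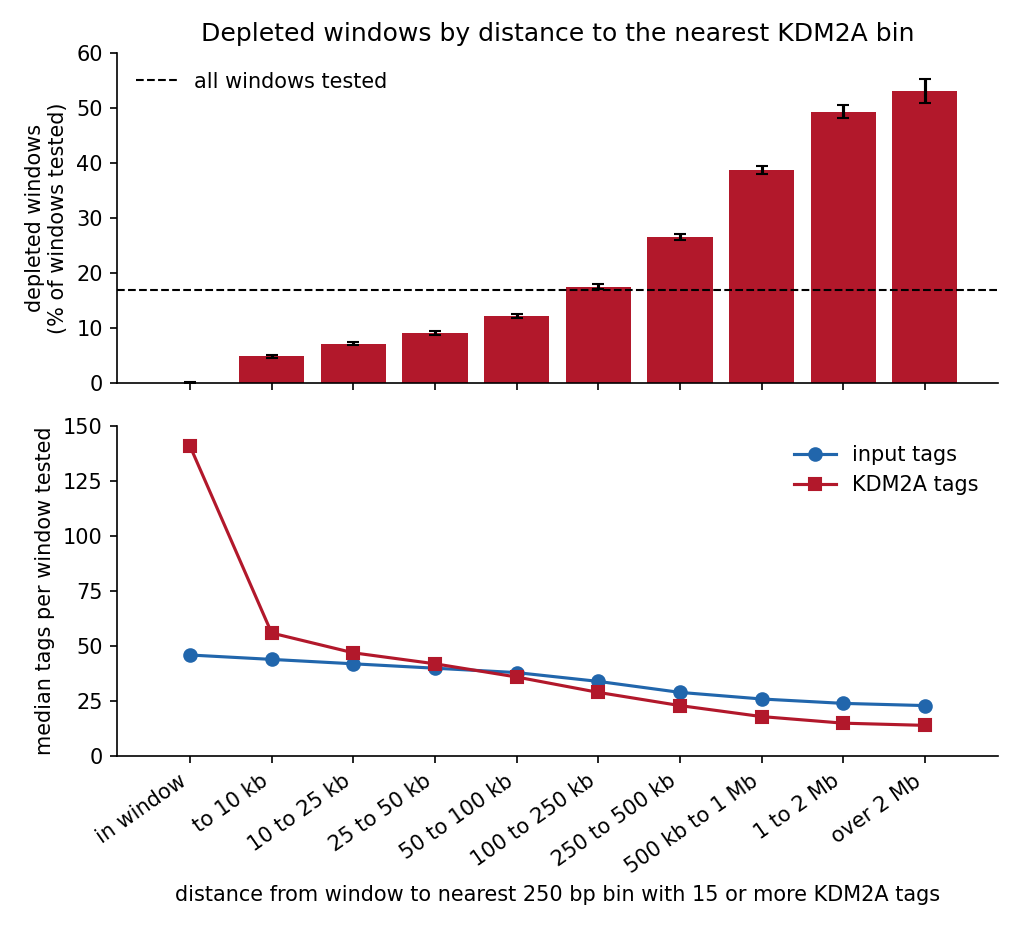
Above, depleted windows as a percentage of windows tested (y axis) by distance to the nearest KDM2A bin (x axis), with 95% Wilson intervals and the 16.8% of all windows tested as a dashed line. Below, median tags per window tested: KDM2A tags fell from 141 in windows that hold a bin to 14 beyond 2 Mb, and input tags from 46 to 23.

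Both libraries became thinner away from KDM2A bins, and the KDM2A library more so. From the windows within 10 kb of a bin to those beyond 2 Mb, the median fell from 56 to 14 tags in the KDM2A library and from 44 to 23 in the input library. The median ratio fell from 1.02 to 0.487. Over the 184973 windows tested, the rank correlation with distance was -0.56 for the ratio and -0.52 for the input tags, as a description over windows that share both libraries and their base composition. Counting all windows, tested or not, the pooled ratio was 0.628 at 500 kb to 1 Mb, 0.589 at 1 to 2 Mb and 0.581 beyond 2 Mb, so that it hardly changed past 1 Mb. The part of base composition in this trend was not tested.

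Input depth moved with the result, and its part in it was not tested. Of windows with 20 to 24 input tags 8856 of 29518 were depleted, of those with 30 to 39 tags 17.3%, of those with 40 to 49 tags 8.85% and of those with 60 to 79 tags 2.77%. At 20 to 24 input tags, the median distance to a bin was 549 kb for depleted windows and 287.5 kb for the others. It was 240.5 and 76.3 kb at 30 to 39 tags, 118 and 37.8 kb at 40 to 49 tags, and 50.6 and 13 kb at 60 to 79 tags. Depleted windows were the more distant ones in each of these bands, in which KDM2A tags still enter both the rule and the bins. At 80 or more input tags, where 12 depleted windows were found, their median distance was 0 kb, below the 2.75 kb of the others.

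A small set of depleted windows held a KDM2A bin. These were 7 of the 12743 windows tested that held one, or 0.0549% (95% Wilson interval 0.0266% to 0.113%). All 7 held an input bin higher still. A pair of neighbouring windows on chromosome 1, from 24610001 to 24620000 and from 24620001 to 24630000, held 560 and 1183 input tags and 196 and 385 KDM2A tags, ratios of 0.284 and 0.264. The window on chromosome 2 from 22440001 to 22450000 held 668 input and 227 KDM2A tags, a ratio of 0.276. Against the median of 29 input tags in depleted windows, these 3 stood far above every other. With the highest 250 bp bin taken for each library separately, the second window of chromosome 1 reached 152 input tags and 51 KDM2A tags. The window of chromosome 2 reached 146 and 54. Input this far above the rest leaves it unclear whether the tags of these 3 windows come from 1 copy of the stretch, which was not tested, and their counts and ratios are to be read with that limit.

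The remaining 4 windows with a KDM2A bin were smaller. On chromosome 13, from 85260001 to 85270000, there were 222 input and 104 KDM2A tags. On chromosome 10, from 95540001 to 95550000, there were 135 and 55, on chromosome 6, from 103590001 to 103600000, 109 and 61, and on chromosome 4, from 28100001 to 28110000, 40 and 22. On chromosome 6 the tags were heaped, since 91 of the 109 input tags and 54 of the 61 KDM2A tags lay in 1 bin each. Among the 5 depleted windows with the most input tags was also one on chromosome 4, from 79640001 to 79650000, with 188 input and 59 KDM2A tags. It held no KDM2A bin of its own but touched one. Its strands were uneven in opposite directions, with 118 input tags on the plus and 70 on the minus strand and 24 and 35 KDM2A tags.

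Depleted windows lay next to each other more often than an even spread would give. Next to 11880 of them (38.1%) was another depleted window. If each chromosome's depleted windows were spread evenly over its windows tested, 27.6% would have such a neighbour. There were 6741 pairs of neighbours, 1.44 times the 4679 of an even spread, and on the 19 chromosomes this ratio lay between 1.15 on chromosome 3 and 2.17 on chromosome 11. At a distance of 10 kb from a depleted window, 30.9% of the windows tested were depleted, at 100 kb 28.6%, at 500 kb 25.3%, at 1 Mb 23.2% and at 5 Mb 18.6%, near the 17.2% to 17.3% that the chromosomes' own shares give. The excess was thus spread over megabases rather than tied to the next window. Of windows with at least 40 input tags, 242 pairs were depleted and an even spread gave 239, a ratio of 1.01, so that neighbours were not in excess there.

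Long runs were few. The 31157 depleted windows formed 24416 runs, of which 19277 were single windows and 77 had 5 windows or more, where an even spread gave 17.8. Runs of 3 or more held 12.8% of the depleted windows. The longest run was 9 windows on chromosome 8, from 104100001 to 104190000, with 115 KDM2A and 241 input tags and a ratio of 0.387. Its windows held 14, 12, 5, 7, 16, 14, 18, 13 and 16 KDM2A tags and 23, 30, 24, 20, 26, 26, 30, 26 and 36 input tags. The lowest ratio, 0.169, was in the third window and the highest, 0.4996, in the fifth. Scattered depleted windows lay on both sides of the run. The nearest KDM2A bin was 2159.5 kb away. In the 500 kb on either side, 23 of 67 windows tested (34.3%) were depleted, no window held a KDM2A bin, and the pooled ratio was 0.584. Per window, the run held a mean of 12.8 KDM2A and 26.8 input tags and these flanks 15.9 and 22.1. The flank means cover all 100 windows, including those with under 20 input tags. Every window of the run had to hold at least 20 input tags and few KDM2A tags for its input. Both differences therefore follow in part from the choice of the run.

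**Figure D4:**
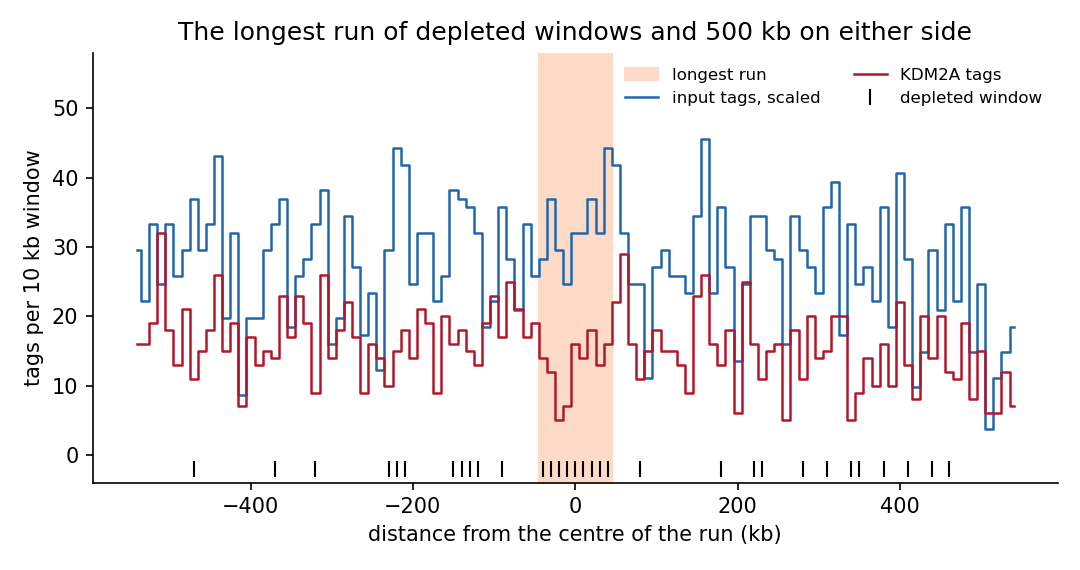
KDM2A tags (red) and scaled input tags (blue) per 10 kb window (y axis) by distance from the centre of the longest run (x axis, kb). The shaded run of 9 windows held 5 to 18 KDM2A tags per window, black marks show the depleted windows, and outside the run KDM2A tags were also mostly below scaled input.

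The next runs differed in their surroundings. On chromosome 1, from 70480001 to 70560000, 8 windows held 114 KDM2A and 224 input tags, a ratio of 0.413, at 589 kb from a bin. On chromosome 9, from 74030001 to 74100000, 7 windows held 135 and 239 tags, a ratio of 0.459, at 610.0 kb. On chromosome 14, from 109060001 to 109130000, 7 windows held 66 and 169 tags, a ratio of 0.317, at 2553 kb, and this was the lowest ratio among these 4 runs. Of the 11 runs of 6 windows, the one with the most input, on chromosome 14 from 10730001 to 10790000, held 107 and 208 tags, a ratio of 0.418, at 1204 kb from a bin. A run of the same length on chromosome 18, from 50000001 to 50060000, named after its values were seen, began 7 kb from a KDM2A bin. The window to its left held 101 KDM2A and 30 input tags, while its own windows held 9 to 17 KDM2A and 20 to 36 input tags. A low stretch could thus lie right beside a peak.

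On the scale of 500 kb, the share of depleted windows varied widely between blocks. Of 3957 blocks with at least 25 windows tested, 173 had at least 50% of them depleted, where an even spread gave 0.105, and 575 had none, where it gave 6.45. The 173 blocks held 9.26% of all depleted windows, and 156 of them held no KDM2A bin, against 27.4% of the 3957 blocks. In the 1083 of these 3957 blocks without such a bin, 28.7% of the windows tested were depleted, and in those with one 9.70%. The highest share was on chromosome 10, from 64500001 to 65000000, where 19 of 26 windows tested were depleted and the pooled ratio of the block was 0.501. On chromosome 18, from 51500001 to 52000000, 18 of 25 were depleted (pooled ratio 0.524), on the same chromosome, from 27500001 to 28000000, 18 of 26 (0.489), and on chromosome 14, from 93500001 to 94000000, 22 of 32 (0.503). Pooled over all their windows, even these blocks lay close to 0.5, so that single windows fell on both sides of the limit.

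Among chromosomes, chromosome 3 had the highest share of depleted windows, 22.5% (95% Wilson interval 21.8% to 23.3%), followed by chromosome 16 (20.4%, 19.4% to 21.3%), chromosome 14 (20.05%, 19.2% to 20.9%) and chromosome 1 (19.9%, 19.3% to 20.6%). The intervals of these last 3 overlap, and that of chromosome 3 lies above them. They treat windows as independent, although depleted windows clustered over megabases, so they are too narrow to rank chromosomes. The lowest was chromosome 11 with 10.9% (10.3% to 11.5%). Chromosome 3 held 7.03 KDM2A bins per Mb and chromosome 11 held 29.6, and over the 19 chromosomes the share fell with the number of bins per Mb (Pearson's r = -0.76, Spearman's rho = -0.77, a description over chromosomes of the same 2 libraries). This order rests on the scaling. With input scaled by the totals of each chromosome, which count the tags of its KDM2A bins, chromosome 3 was at 13.0% and chromosome 11 at 21.0%, and the correlation turned to r = 0.71 (rho = 0.86). The order of the chromosomes thus turned with the scaling, while the longer distance to KDM2A bins was found under both.

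**Figure D5:**
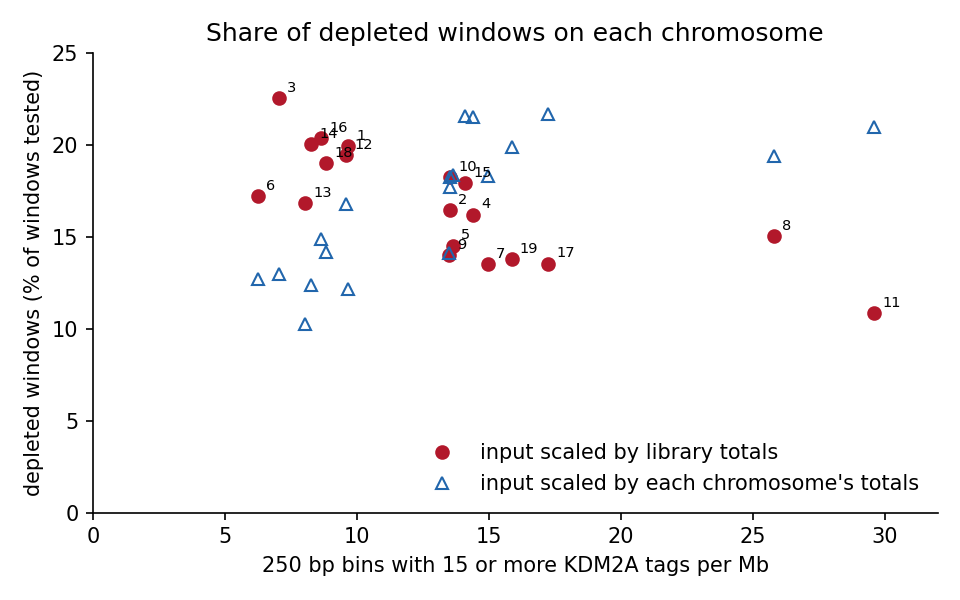
Depleted windows as a percentage of windows tested (y axis) by the number of KDM2A bins per Mb (x axis) for chromosomes 1 to 19, numbered at the red points. With library totals (red) the share fell from chromosome 3 (22.5%) to chromosome 11 (10.9%), and with each chromosome's own totals (blue triangles) the order turned.

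Between its first and last window with a tag, the first lying near the centromere in mouse, each chromosome was split into 10 equal parts. Pooled over chromosomes, depleted windows were 21.7% of the windows tested in the first part, 18.7% in the fifth, 11.2% in the ninth and 9.21% in the last. Chromosomes differed, since the first part ranged from 2.15% on chromosome 19 to 38.0% on chromosome 3. It lay above the last part on 15 of 19 chromosomes. The last part was lower than the rest of the chromosome on 15 of 19 chromosomes. At the very end the share rose again, to 17.1% in the last 2 Mb, against 8.61% from 2 to 5 Mb and 7.40% from 5 to 10 Mb before the last tag. The last 2 Mb lay above the stretch from 2 to 10 Mb on 16 of 19 chromosomes, and ranged from 0% on chromosome 4 to 49.5% on chromosome 18. The ends of the chromosomes thus differed widely from one another.

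Depleted windows were also compared with the other windows tested in features that the rule did not use. Copies of a position made up 18.4% of their input tags and 3.45% of their KDM2A tags, against 21.2% and 4.93% in the other windows tested. Copies were thus fewer in depleted windows than in these in both libraries. Windows with under 20 input tags had 17.1% and 3.61%, so a low share of copies was not particular to depleted windows. The plus strand held 50.1% of the KDM2A tags and 50.04% of the input tags of depleted windows, against 50.03% and 49.99% in the others. Among windows with exactly 30 input tags, these fell into 19.99 ± 1.999 of the 40 bins of 250 bp in 1307 depleted windows and 20.1 ± 1.95 in 4419 others (mean ± SD over windows). The SD describes the spread of single windows, and the difference between the means was not tested.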

How the data were processed

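The authors aligned the reads to mm9 with Bowtie, the build and tool named in the submitters' processing notes, and deposited 1 table per library of raw tag counts, in which every line gives a chromosome, a strand, a position and the number of tags placed there. Filters before deposition and the version of Bowtie are not given in the sources used here. Positions on chromosome 1 reach 197194496, beyond the last gene of chromosome 1 in GRCm38.p6, which ends at 195291439. The available annotation and sequences are of GRCm38.p6, so that no gene is placed and no sequence is printed.

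From these counts, tags were tallied once per position and strand in windows of 10 kb. Input was scaled by the totals of all 21 chromosomes. Distance is the gap between a window and the nearest 250 bp bin with 15 or more KDM2A tags. The number given by counting error is a sum of exact binomial probabilities, and the even spread is computed exactly per chromosome for pairs and neighbours and from each chromosome's share for runs and blocks. Intervals are 95% Wilson intervals. PCR copies are not independent molecules, and intervals cover counting error only. Intervals of shares of windows treat each window as independent, which clustered windows are not, so they are too narrow. Windows named are the 5 with the lowest ratio, the 5 with the most input, the 5 longest runs and the 5 on either side of the limit, with ties taken by the most input, and any other is named after its values were seen. The members, the rule and the alternatives were chosen with earlier results of these data known. No test between conditions was possible with 1 library each. Python 3.11.15, numpy 2.4.6, pandas 2.3.3, scipy 1.17.1 and matplotlib 3.10.9 were used, and the counting was tested on simulated data.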

Additional observations from a re-analysis of the deposited data

How the results depend on the processing

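No paired analysis was possible because each group has 1 library, and no library could be left out. Of the alternatives, all tags, a minimum of 10 input tags, scaling outside KDM2A bins or by chromosome, windows moved by 5 kb and tags moved by 50 bp left the number of depleted windows within 1.5 times of 31157, between 24861 and 41794. It was 4914 with at least 40 input tags, 12935 at a limit of 0.4, 53870 at 0.6, 10420 with 20 kb windows, and 10811 with input scaled by the median ratio, a setting chosen after the data were seen. Scaling outside KDM2A bins kept 79.8% of the depleted windows, and all tags 86.8%. With the libraries exchanged there were 8375 windows at 0.4 and 5849 with 20 kb windows, against 14112. The share with a depleted neighbour, 38.1%, was 41.1% with all tags, 49.7% with at least 10 and 9.54% with at least 40 input tags, 19.1% at 0.4, 54.9% at 0.6, 32.2% with scaling outside KDM2A bins, 39.4% with scaling by chromosome and 31.4% with 20 kb windows. In the same order, the median distance of 308 kb became 286 kb, 382.5 kb, 104 kb, 389 kb, 250.5 kb, 332.5 kb, 299.5 kb and 362 kb, and it was 176 kb with bins of 10 tags and 487 kb with bins of 20 tags. In each of these the other windows tested were nearer, at 28 to 110.5 kb. Pairs of neighbours were 1.71 times an even spread with 20 kb windows and 1.01 times with at least 40 input tags. The ratio on the unused strand, 0.596, was 0.599 when windows were chosen on the minus strand and 0.644 with at least 20 input tags. Counting error gave 2258, 10510.5 and 21298 windows with the KDM2A share set outside KDM2A bins, by the median ratio and by the 10 windows on either side, against 1325. A higher minimum or lower limit leaves fewer windows by construction, and the cause of the other shifts was not tested. Depth limits the calls, since at 20 input tags 12 KDM2A tags decide them.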

Other observations

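Chromosome X was not part of the rule. Counted in the same way, it held 16663 windows with a median of 10 input tags, against 30 on chromosomes 1 to 19, and 1640 of them held at least 20. Of these, 564 (34.4%, 95% Wilson interval 32.1% to 36.7%) met the limit. On chromosomes 1 to 19, 74.8% of windows held at least 20 input tags. The 34.4% thus rests on a more selected part of its windows than the 16.8% of chromosomes 1 to 19. The pooled ratio over all windows of chromosome X was 0.749, and the median ratio of the windows tested was 0.627.

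The windows of chromosomes 1 to 19 that held under 20 input tags had a pooled ratio of 0.764, higher than the 0.404 of the depleted windows and lower than the 1.13 of the other windows tested. They held 6.83% of the KDM2A library and 8.94% of the input library, and 228 of the 62268 held a 250 bp bin with 15 or more KDM2A tags.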
